A study of Mus musculus with 98 samples.

Results

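The transcripts described here belong to 6 genes of the STAT family: Stat2, Stat3, Stat4, Stat5a, Stat5b and Stat6. Membership went by gene symbol, with no measured value in the rule, though the 6 genes were chosen with earlier results of these data known. They are 6 of the 24312 gene symbols found in the 7 deposited count tables. Each of the 6 was present in every table and passed the low-count filter in every fit, so none is missing from any comparison. STAT proteins are latent transcription factors that are phosphorylated by receptor-bound JAK kinases when a cytokine engages its receptor, then pair and enter the nucleus. In helper T cells STAT5A and STAT5B, encoded by neighbouring paralogs, carry the IL-2 signal, STAT3 serves IL-6 and IL-21, STAT4 serves IL-12 in Th1 differentiation, STAT6 serves IL-4 in Th2 differentiation, and STAT2 acts with IRF9 downstream of type I interferon. The question asked of the data was whether the transcripts of the other 4 STATs differed when STAT5 was lost, reduced or restored.

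The study measured poly(A) RNA of C57BL/6 mouse CD4+ T cells in 88 libraries, which fall into 43 groups and 7 separately counted sets. Naive CD4+CD44-CD25- cells from pooled spleen and lymph nodes were stimulated with antibodies to CD3 and CD28. Set 1 compared wild-type cells given human IL-2 for 18 h after an overnight rest (day 4, 3 libraries) with cells collected after the rest (day 3, 3 libraries). Sets 2, 3 and 5 compared STAT5-deficient cells (Stat5a/b flox/flox Cd4-Cre+/-, in which Cre is driven from the Cd4 promoter in T-lineage cells) with wild-type cells, each transduced with retroviral STAT5, MYC, AKT, CD25 or control vectors and given IL-2 for 18 h (day 4, 2 libraries per group); in set 5 vectors were used in pairs. Set 4 compared the same 2 genotypes after 3 days in Th0, Th1 (IL-12 and anti-IL-4), Th2 (IL-4 and anti-IFNγ), Th17 (TGF-β, IL-6, anti-IL-4 and anti-IFNγ) or iTreg (TGF-β, anti-IL-4 and anti-IFNγ) culture, with neither cytokine nor blocking antibody added for Th0 (2 libraries per group). Set 7 compared Stat5a-/- Stat5b+/- and Stat5b-/- Stat5a+/- cells with wild-type cells at day 4 with IL-2 (2 libraries per group), and set 6 compared wild-type FoxP3+ natural Treg cells kept in IL-2 overnight (16 to 18 h) with the same cells taken ex vivo (2 libraries per group).

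Library totals ran from 3900629 to 49096802 counts over the 88 libraries. Values below are CPM, the counts of a gene scaled by the library total. CPM is not divided by transcript length, so levels are compared between groups for 1 gene and not between genes. The T cell markers Cd3e, Cd3g, Cd4 and Lck summed to at least 1212 CPM in the libraries of the main comparisons. In set 5, library 1 of STAT5-deficient cells with STAT5 and AKT vectors had 20.9% of its counts on the ribosomal RNA transcript Rn45s, against at most 1.05% elsewhere. Another 4 libraries stood apart and were left out in an alternative chosen after seeing the data: library 2 of wild-type cells with STAT5 vector in set 3, which had 138 CPM of Stat5a against 608 CPM in its partner; library 1 of STAT5-deficient cells in set 5 with control vectors, and with the MYC vector, which held 19.2 and 18.4 CPM of Stat5a; and library 2 of STAT5-deficient cells with control vector in set 2, which had the 1.05% of Rn45s. The labels do not say whether the libraries of a group came from separate mice, so each p-value reflects no more than variation among libraries, possibly technical. Where libraries of 2 groups are said below not to overlap, the share of all genes that did so was not counted. With 2 libraries per group such separation often arises without a difference. In bulk RNA, fewer cells of a type and less RNA per cell cannot be told apart.

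RefSeq promoter windows (GRCm38.p6, 250 bases before to 50 after a transcript start) were available for all 6 genes, in 9 windows. They were searched on both strands for TTCNNNGAA, the palindrome most STAT dimers bind, for TTC and GAA set 4 bases apart, the wider spacing linked to STAT6, and for a pair of GAAA set 2 bases apart, the core of the element bound by the STAT2-containing interferon complex. Of 32851 mouse windows of the same length, 8.298%, 6.953% and 3.443% held these motifs, in that order. None of the 9 windows held TTCNNNGAA. The Stat2 window held the GAAA pair 222 bases upstream of the start, on the opposite strand, and the wider palindrome 210 bases upstream; the second Stat4 window held the GAAA pair 97 bases upstream. The windows of Stat3, Stat5a, Stat5b and Stat6 and the first of Stat4 held none of the motifs. Shown, with matches in capitals, are the window of Stat2, whose values are set beside the interferon-stimulated genes below, and those of Stat3 and Stat4, the pair with called differences after both loss and return of STAT5; they were picked with the matches known, and a match is no evidence of binding.
Stat2, chr10:128270248-128270547, plus strand: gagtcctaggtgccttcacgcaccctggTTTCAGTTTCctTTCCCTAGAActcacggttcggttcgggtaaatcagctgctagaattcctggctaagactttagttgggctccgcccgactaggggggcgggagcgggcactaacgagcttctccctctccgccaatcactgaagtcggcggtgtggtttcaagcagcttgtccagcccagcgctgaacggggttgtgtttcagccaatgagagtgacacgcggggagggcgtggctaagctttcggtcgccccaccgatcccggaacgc
Stat3, chr11:100939491-100939790, minus strand: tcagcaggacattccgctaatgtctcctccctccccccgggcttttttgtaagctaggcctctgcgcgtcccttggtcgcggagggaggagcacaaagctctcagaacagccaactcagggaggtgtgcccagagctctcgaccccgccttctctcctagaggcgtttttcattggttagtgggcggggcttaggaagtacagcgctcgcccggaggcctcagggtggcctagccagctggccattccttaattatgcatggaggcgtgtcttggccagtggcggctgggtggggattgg
Stat4 window 1, chr1:51986898-51987197, plus strand: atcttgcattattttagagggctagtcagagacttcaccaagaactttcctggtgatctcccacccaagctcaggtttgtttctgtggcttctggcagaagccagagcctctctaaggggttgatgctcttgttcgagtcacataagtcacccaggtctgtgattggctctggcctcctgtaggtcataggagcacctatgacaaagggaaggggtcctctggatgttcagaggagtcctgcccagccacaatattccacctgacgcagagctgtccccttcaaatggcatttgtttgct
Stat4 window 2, chr1:52007990-52008289, plus strand: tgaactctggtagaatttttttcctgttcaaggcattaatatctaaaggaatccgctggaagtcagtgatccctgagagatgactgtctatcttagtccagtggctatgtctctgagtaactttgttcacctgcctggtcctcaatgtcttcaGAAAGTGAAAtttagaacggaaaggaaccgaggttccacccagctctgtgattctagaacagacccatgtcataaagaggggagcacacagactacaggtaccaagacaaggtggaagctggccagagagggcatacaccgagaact

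The targeted genes were examined first. With control vectors, STAT5-deficient cells had 2.31 and 2.82 CPM of Stat5a in set 2, 2.91 and 2.0 in set 3 and 19.2 and 5.32 in set 5, against 82.4 and 69.3, 89.8 and 91.2, and 99.6 and 91.1 CPM in wild-type cells. Stat5b was at 2.42 and 1.73, 1.08 and 2.94, and 8.21 and 5.59 CPM in STAT5-deficient cells, against 193 and 190.5, 209.7 and 200.4, and 192 and 165 CPM in wild-type cells. No deficient library reached a wild-type one for either gene, and the residual was highest in set 5. Averaged over the 3 sets, both fell, with log2 fold changes of -4.59 ± 0.29 for Stat5a and -6.18 ± 0.17 for Stat5b (± SE; edgeR quasi-likelihood test with Benjamini-Hochberg adjustment over all genes, adjusted p = 4.27e-16 and 6.54e-26), in a comparison in which 28.9% of 16359 genes were called higher and 30% lower at adjusted p below 0.05. Within sets the Stat5a difference was -5.07, -5.42 and -3.28 and the Stat5b difference -6.73, -6.83 and -4.99. Without library 1 of deficient cells in set 5 the Stat5a difference in that set was -4.43. Labels and transcripts were in accord in set 4 as well: the 10 STAT5-deficient libraries held 1.76 to 4.76 CPM of Stat5a and 0.59 to 4.03 CPM of Stat5b, against 151 to 566 and 187 to 447 CPM in the 10 wild-type libraries.

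The STAT5 vector appeared mainly as Stat5a counts. STAT5-deficient cells with this vector had 1169 and 781 CPM of Stat5a in set 2, 1098 and 938 in set 3 and 619 and 603 in set 5; the same cells with control vectors had at most 19.2 CPM. Stat5b was at 56.6 and 37.9, 70.6 and 56.0, and 30.7 and 29.5 CPM with the vector and at most 8.21 CPM without it. The log2 fold changes were 7.80 ± 0.33 for Stat5a and 4.01 ± 0.17 for Stat5b (edgeR, adjusted p = 4.46e-21 for each). Across all 10 deficient libraries that carried the STAT5 vector, 4.66 to 6.43 Stat5b counts were recorded per 100 Stat5a counts, a narrow range beside the 79.0 to 296 per 100 of the 38 wild-type libraries without it. Stat5a and Stat5b are close paralogs, and how the counting treated reads that fit both is not given in the sources used here, so the Stat5b values under the vector are uncertain. In wild-type cells the STAT5 vector raised Stat5a by 2.40 ± 0.24 on the log2 scale (5.28-fold, adjusted p = 1.29e-09), while Stat5b differed by 0.10 ± 0.13 (adjusted p = 0.737).

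**Figure D1:**
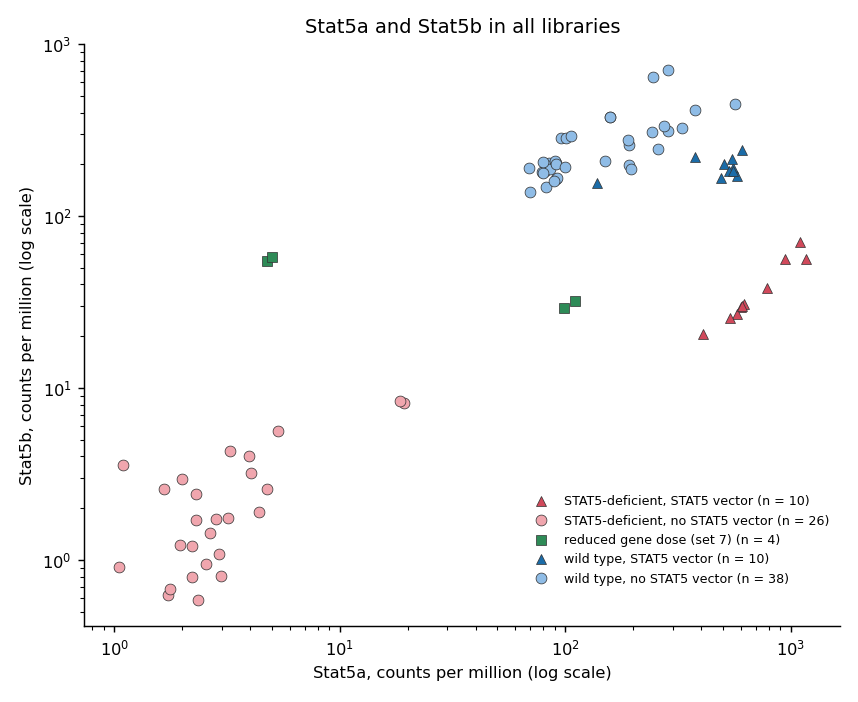
Stat5b against Stat5a in all 88 libraries, in CPM on log axes; each point is 1 library and colours give genotype and vector. STAT5-deficient libraries with the STAT5 vector form a line at 4.66 to 6.43 Stat5b counts per 100 Stat5a counts, while those without it lie at the lower left.

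Set 1 compared wild-type cells given IL-2 with cells collected after rest. The IL-2 cells were also cultured 18 h longer (day 4 against day 3), and no day 4 group lacked IL-2. IL-2 and the added time cannot be told apart, here or where set 1 is cited below. Stat2, Stat3, Stat4 and Stat5b were lower after IL-2 than after rest. Stat4 was at 112, 104 and 116 CPM with IL-2, against 307, 301 and 294 CPM after rest, a fold change of 0.409 (log2 -1.29 ± 0.06, adjusted p = 3.45e-13). Stat2 was at 60.5, 60.9 and 51.2 CPM with IL-2, against 144, 118 and 116 CPM after rest (log2 -0.99 ± 0.08, adjusted p = 3.25e-09). Stat3 was at 196, 179 and 161 CPM with IL-2, against 339.5, 323 and 343 CPM after rest (log2 -0.76 ± 0.06, adjusted p = 3.04e-09). Stat5b was at 201, 203 and 184 CPM with IL-2, against 284, 283 and 292 CPM after rest (log2 -0.40 ± 0.05, adjusted p = 1.67e-06). In CPM every IL-2 library lay below every rested library for all 6 members. Stat5a was at 81.3 to 87.5 CPM with IL-2 and 95.8 to 106 CPM after rest. With scaling factors applied Stat5a overlapped, at 92.5 CPM in IL-2 library 1 and 90.9 CPM in rested library 1, and the other members did not. By the test, 40.3% of 12262 genes were called lower and 40.7% higher. Stat5a (log2 -0.11 ± 0.06, adjusted p = 0.116) and Stat6 (log2 -0.10 ± 0.05, adjusted p = 0.0906) did not pass the test, though with upper-quartile or no scaling both were called lower, with log2 values of -0.33 and -0.26 for Stat5a and -0.32 and -0.25 for Stat6. Leaving out library 1 or 3 of the IL-2 group also gave a Stat6 call (log2 -0.14 in each). The myeloid and antigen-presenting marker list (6 genes found) also moved, at 3.89 to 5.39 summed CPM with IL-2, where Lyz2 was at 0, against 81.6 to 95.8 CPM after rest, where Itgax was at 0. B cell markers summed to 2.85 to 3.09 CPM with IL-2 and 16.1 to 16.7 CPM after rest, CD8 T cell markers to 9.33 to 11.97 CPM with IL-2 and 20.8 to 23.7 CPM after rest, and Rn45s was at 1089 to 1313 CPM with IL-2 and 2581 to 3712 CPM after rest. The part of these in the STAT values was not tested.

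STAT5 loss was then compared under control vectors with IL-2 present. Stat4 was the member that differed most among the other 4. It was at 177 and 162 CPM in STAT5-deficient cells of set 2, 176 and 184 of set 3 and 159 and 163 of set 5, against 84.5 and 86.1, 96.8 and 99.4, and 70.0 and 68.9 CPM in wild-type cells. All 6 deficient libraries lay above all 6 wild-type libraries. Stat4 rose by 0.80 ± 0.12 on the log2 scale (1.74-fold, adjusted p = 1.91e-07), and by 0.79, 0.68 and 0.94 within sets 2, 3 and 5, each called, where 39%, 41.6% and 43% of all genes were called. Stat3 was at 293 and 283, 277 and 337, and 243 and 281 CPM in STAT5-deficient cells, against 198 and 178, 219 and 239.6, and 205 and 183 CPM in wild-type cells. Its log2 fold change was 0.27 ± 0.09 (1.20-fold, adjusted p = 0.0104), with 0.41, 0.22 and 0.16 within the sets, of which set 2 was called (adjusted p = 0.0315) but not when any 1 of its 4 libraries was left out (adjusted p 0.097 to 0.122). The Stat3 value depended on scaling: it was 0.45 with upper-quartile factors and 0.49 with none, where the median of all genes stood at 0.24 and 0.28, against 0.06 with the factors used here.

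Stat2 and Stat6 gave no call over the 3 sets. Stat2 was at 69.8 and 71.2 CPM in STAT5-deficient cells of set 2, 72.1 and 78.9 of set 3 and 82.1 and 76.1 of set 5, against 105 and 75.9, 80.1 and 87.9, and 54.9 and 43.5 CPM in wild-type cells. The averaged log2 difference was -0.17 ± 0.12 (adjusted p = 0.236), and the sets did not share a sign: -0.56 in set 2 (adjusted p = 0.0301), -0.35 in set 3 (adjusted p = 0.177) and 0.40 in set 5 (adjusted p = 0.13). The set 2 call was lost when either STAT5-deficient library or library 1 of wild-type cells was left out (log2 -0.59 to -0.38), and in set 5 a call appeared under 6 alternatives (log2 0.42 to 0.68). Stat6 lay between 200.4 and 265 CPM in the 6 deficient libraries and between 194 and 241 CPM in the 6 wild-type libraries (log2 -0.10 ± 0.08, 95% interval -0.26 to 0.06, adjusted p = 0.273), with -0.11, -0.11 and -0.09 within the sets.

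The deficient libraries also differed in marker content. Summed CPM of the myeloid and antigen-presenting list was 70.9 to 261 in the 6 deficient libraries (5 of 6 markers detected, Lyz2 at 0) and 10.8 to 39.9 in the 6 wild-type libraries (6 of 6 detected). B cell markers summed to 4.02 to 12.2 CPM in deficient and 1.11 to 3.54 CPM in wild-type libraries. The Treg markers Foxp3 and Ikzf2 summed to 78.5 to 158 CPM in deficient and 25.8 to 58.6 CPM in wild-type libraries, and T cell markers to 2618 to 3260 CPM in deficient and 1526 to 2011 CPM in wild-type libraries. The part of these differences in the STAT values was not tested.

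Returning STAT5 to deficient cells lowered Stat4 and Stat3. Stat4 was at 89.3 and 102 CPM with the STAT5 vector in set 2, 37.7 and 41.6 in set 3 and 20.9 and 20.7 in set 5, against 159 to 184 CPM in deficient cells with control vectors. No library with the STAT5 vector reached one without it. Stat4 fell by 1.83 ± 0.12 on the log2 scale (fold change 0.281, adjusted p = 5.15e-16), and by 0.84, 2.03 and 2.62 within sets 2, 3 and 5. Stat3 was at 151 and 165, 129.6 and 123, and 105 and 107 CPM with the STAT5 vector, against 243 to 337 CPM with control vectors. Its log2 fold change was -0.998 ± 0.09 (fold change 0.501, adjusted p = 3.14e-12), with -0.88, -1.13 and -0.98 within the sets. Over all genes 28.7% were called lower and 31.7% higher, and 27.9%, 47.9% and 51.4% were called in either direction within sets 2, 3 and 5. Stat2 (log2 0.18 ± 0.12, adjusted p = 0.207; 0.29, -0.02 and 0.26 by set) and Stat6 (log2 0.06 ± 0.08, adjusted p = 0.52; -0.20, 0.15 and 0.24 by set) were not called. Beside this, the myeloid and antigen-presenting list summed to 30.8 to 149 CPM with the STAT5 vector and 70.9 to 261 CPM without, and the Treg markers to 352 to 547 CPM with the vector and 78.5 to 158 CPM without; their part was not tested.

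Restored deficient cells were also set against wild-type cells with control vectors. Stat4 was lower in restored deficient cells than in wild-type cells by 1.03 ± 0.12 on the log2 scale (fold change 0.490, adjusted p = 4.29e-09), and Stat3 by 0.73 ± 0.09 (fold change 0.602, adjusted p = 2.01e-08), where 16.9% of genes were called lower and 19.1% higher. In set 2 Stat4 was at 89.3 and 102 CPM in restored cells and 84.5 and 86.1 CPM in wild-type cells, so the lower values lay in sets 3 and 5. In the same comparison Stat5a was 9.26-fold higher and Stat5b was at 0.222 of the wild-type level, and Stat2 (log2 0.01 ± 0.12) and Stat6 (log2 -0.04 ± 0.08) were not called.

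**Figure D2:**
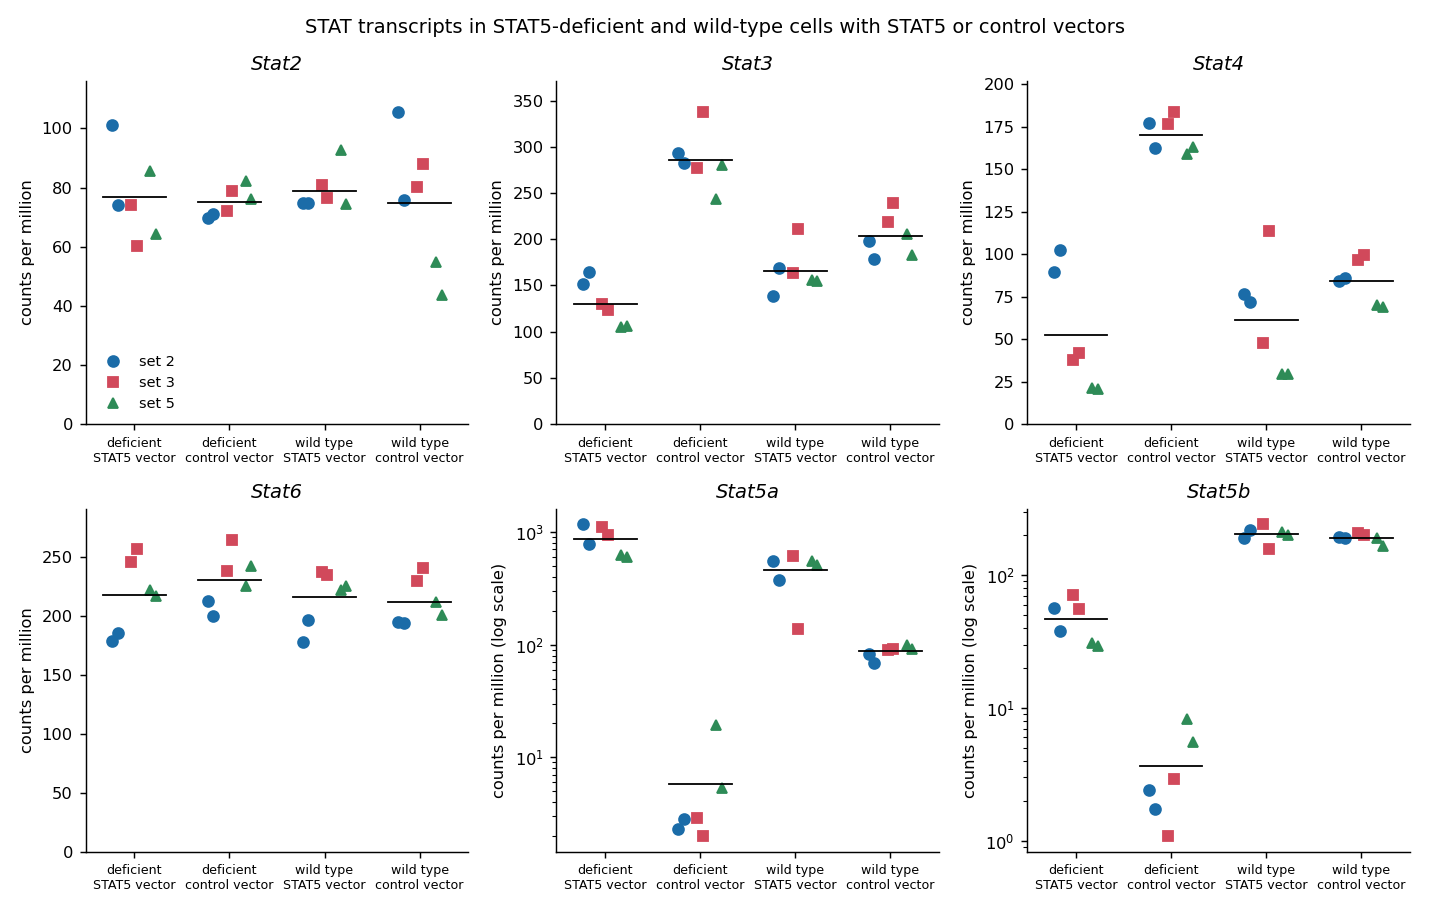
CPM of the 6 STAT transcripts in STAT5-deficient and wild-type cells with STAT5 or control vectors; points are single libraries, colour and shape give the set, and lines are means of 6 libraries (Stat5a and Stat5b on log axes). Stat3 and Stat4 are highest in deficient cells with control vectors, and Stat4 reaches 20.7 CPM with the STAT5 vector in set 5.

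Extra STAT5 in wild-type cells gave smaller differences in the same 2 genes. Stat4 was at 76.6 and 71.8 CPM in set 2, 47.9 and 114 in set 3 and 29.5 and 29.5 in set 5 with the STAT5 vector, against 84.5 and 86.1, 96.8 and 99.4, and 70.0 and 68.9 CPM with control vectors. The averaged difference was -0.59 ± 0.12 on the log2 scale (fold change 0.664, adjusted p = 0.000313), and by set it was -0.15, -0.42 and -1.21, of which set 5 alone was called. In set 3 the library at 114 CPM was the one with 138 CPM of Stat5a; without it the set 3 value was -1.03 and called (adjusted p = 0.0014), and without its partner it was 0.13. Stat3 was at 139 and 169, 163 and 211.5, and 155 and 155 CPM with the STAT5 vector, against 198 and 178, 219 and 239.6, and 205 and 183 CPM with control vectors (log2 -0.30 ± 0.09, adjusted p = 0.0172). It was not called within any set (-0.23, -0.37 and -0.30), and the pooled call was lost when library 1 of wild-type cells with STAT5 vector in set 2, or library 1 of either group in set 5, was left out (log2 -0.29 to -0.25, adjusted p 0.0511 to 0.0905). Over all genes 7.02% were called lower and 8.09% higher, and 2.51%, 1.93% and 9.35% in either direction within the sets. Stat2 differed between sets (-0.21, -0.16 and 0.77, of which set 5 was called, adjusted p = 0.0111, and lost without library 2 of the control group or library 1 with STAT5), and Stat6 was at 0.0029, -0.06 and 0.14. The Treg markers summed to 71.6 to 269 CPM with the STAT5 vector and 25.8 to 58.6 CPM with control vectors, and the myeloid and antigen-presenting list to 18.2 to 75.9 CPM with the STAT5 vector and 10.8 to 39.9 CPM with control vectors; their part was not tested.

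The difference between these responses was tested directly. The STAT5 vector effect was more negative in deficient than in wild-type cells by 1.24 ± 0.17 on the log2 scale for Stat4 (adjusted p = 9.89e-08) and by 0.70 ± 0.13 for Stat3 (adjusted p = 2.09e-05), where 19.3% of genes were called with a lower and 24.2% with a higher effect in deficient cells. The log2 vector effect on Stat5a itself was also greater in deficient cells, by 5.4 ± 0.37, and so was that on Stat5b, by 3.91 ± 0.21. Both effects start in deficient cells from the few counts left by the deletion, so a greater log2 effect was fixed by the design. The Stat5a level reached with the vector was also higher in deficient cells, least so in set 5. It was at 1169 and 781 CPM in deficient and 557 and 377 CPM in wild-type cells of set 2. In set 3 it was at 1098 and 938 CPM in deficient and 608 and 138 CPM in wild-type cells. In set 5 it was at 619 and 603 CPM in deficient and 551 and 507 CPM in wild-type cells. The part of this level in the Stat4 and Stat3 values was not tested. No difference in vector effect was called for Stat2 (0.04 ± 0.17) or Stat6 (0.04 ± 0.11). Without the 4 libraries that stood apart, the Stat4 and Stat3 values were -1.04 and -0.68. The comparisons of this and the preceding paragraphs share control libraries, so their values are not independent of each other.

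**Figure D3:**
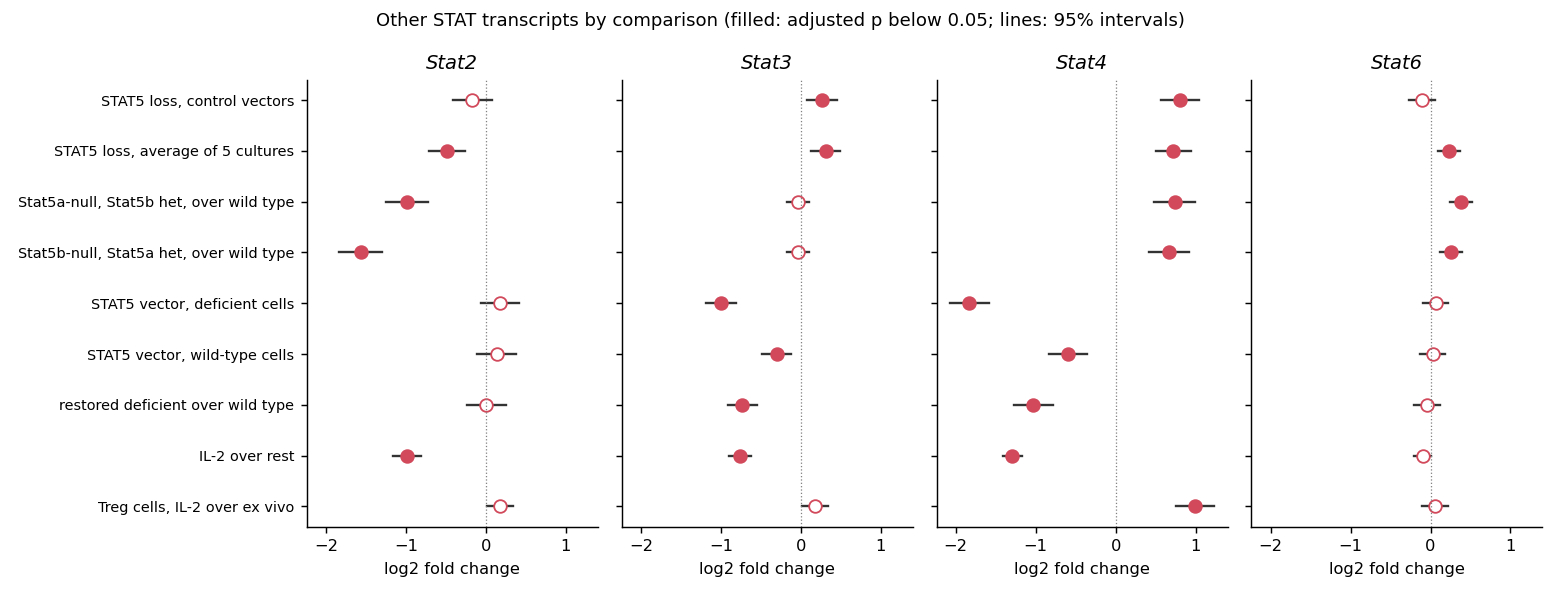
Log2 fold changes of Stat2, Stat3, Stat4 and Stat6 in 9 comparisons, with 95% intervals as lines; filled points passed adjusted p below 0.05. Stat4 lies right of 0 in each of the 4 comparisons of STAT5 loss or reduction and left of 0 where the STAT5 vector was added, while Stat6 stays between -0.10 and 0.38.

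MYC, AKT and CD25 vectors showed whether other inserts did the same. In deficient cells the AKT vector lowered Stat4, which was at 104 and 123 CPM in set 3 and 98.2 and 91.9 in set 5, against 176 and 184, and 159 and 163 CPM with control vectors (log2 -0.68 ± 0.14, adjusted p = 0.000386), and raised Stat2, at 88.4 and 115 CPM in set 3 and 171 and 107 in set 5, against 72.1 and 78.9, and 82.1 and 76.1 CPM with control vectors (log2 0.65 ± 0.15, adjusted p = 0.00084). The residual Stat5a and Stat5b counts were lower with AKT too (log2 -1.38 ± 0.45 and -1.64 ± 0.28, adjusted p = 0.0199 and 2.51e-05), at levels of 1.05 to 4.39 and 0.62 to 1.90 CPM, and the Stat5a call was lost without any 1 of 4 libraries (log2 -1.22 to -0.80). 25% of all genes were called in that comparison. No member was called with AKT in wild-type cells (4.7% of genes called), with MYC in deficient (9.97%) or wild-type cells (0.0917%, which is 15 genes, against 410 by DESeq2 and 1438 at unadjusted p below 0.05), or with CD25, where edgeR called 0% of genes in either genotype (167 genes in deficient and 119 in wild-type cells at unadjusted p below 0.05, and 1 and 0 genes by DESeq2).

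In set 5 STAT5 was also added beside AKT or MYC. In deficient cells Stat4 was at 15.9 and 21.4 CPM with STAT5 and AKT, against 98.2 and 91.9 CPM with AKT alone (log2 -2.07 ± 0.22, adjusted p = 5.52e-10), and at 20.4 and 19.3 CPM with STAT5 and MYC, against 117 and 128 CPM with MYC alone (log2 -2.15 ± 0.21, adjusted p = 8.64e-11). Stat3 was lower by 1.15 ± 0.16 beside AKT and by 1.12 ± 0.16 beside MYC (adjusted p = 1.45e-07 and 1.63e-07), where 42.5% and 53.9% of genes were called. The library rich in Rn45s belongs to the first of these; without it the Stat4 and Stat3 values beside AKT were -1.97 and -1.11. In wild-type cells Stat4 was lower by 0.94 ± 0.21 beside AKT and 1.13 ± 0.21 beside MYC, and Stat2 was higher by 0.92 ± 0.21 and 0.75 ± 0.21 (11.5% and 16.8% of genes called). Of these, the Stat4 call beside AKT was lost without library 1 of the AKT group (log2 -0.62), and the Stat2 calls were lost without either of 2 libraries beside AKT or any of 3 beside MYC (log2 0.58 to 0.77). Stat3 was lower beside MYC (log2 -0.45 ± 0.16, adjusted p = 0.0436, lost without any 1 of 3 libraries). Stat6 was called higher beside MYC in deficient cells (log2 0.36 ± 0.14, adjusted p = 0.0255), but its sign turned with upper-quartile scaling (-0.04) or none (-0.12).

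Set 4 compared STAT5-deficient with wild-type cells in 5 cultures. Averaged over them, Stat4 rose by 0.72 ± 0.10 (1.65-fold, adjusted p = 8.86e-05), Stat3 by 0.31 ± 0.09 (1.24-fold, adjusted p = 0.0139) and Stat6 by 0.23 ± 0.06 (1.17-fold, adjusted p = 0.0135), and Stat2 fell by 0.48 ± 0.11 (fold change 0.716, adjusted p = 0.00276), where 15.1% of 15299 genes were called higher and 12.1% lower. Without library 1 of wild-type Th1 cells the Stat3 and Stat6 values were 0.26 and 0.18 and neither was called (adjusted p = 0.053 and 0.0594), and Stat6 was not called with upper-quartile scaling (0.19) or without the low-count filter (0.21). In both genotypes, library 2 of Th1 carries the cell type label Th2 while its title and treatment say Th1; it was used as Th1. Myeloid and antigen-presenting markers summed to 34.4 to 214 CPM in the 10 deficient libraries and 22.9 to 149 CPM in the 10 wild-type libraries, with 6 of 6 detected on both sides, and their part was not tested.

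The size of the difference varied with culture for Stat4 and Stat2. Stat4 was at 216 and 376 CPM in deficient Th0 cells against 131 and 182 CPM in wild-type cells, at 214 and 222 against 95.6 and 97.0 CPM in Th1, at 113 and 105 against 48.5 and 44.4 CPM in Th2, at 92.3 and 84.2 against 65.7 and 59.5 CPM in Th17, and at 67.5 and 70.2 against 67.1 and 59.7 CPM in iTreg cultures. Deficient libraries lay above wild-type ones in each culture in CPM, by a narrow margin in iTreg, where the fitted difference with scaling factors was just below 0. The log2 fold changes were 0.87, 1.17 and 1.18 in Th0, Th1 and Th2, each called (adjusted p = 0.0325, 0.00441 and 0.00431), and 0.44 in Th17 and -0.06 in iTreg, not called. 6.49%, 11.7%, 11.5%, 4.88% and 22.6% of genes were called in Th0, Th1, Th2, Th17 and iTreg. The Th0 call was lost without library 1 of wild-type cells (0.67) or library 2 of deficient cells (0.41). An F test of culture by genotype, which asks whether the 5 differences are equal, gave adjusted p = 0.0422 for Stat4, where 18.1% of genes passed, and 12 of the 20 fits that left out 1 library did not keep it (adjusted p up to 0.134).

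Among the other STATs, Stat2 alone had called differences in both directions between cultures. The fitted values of Stat3, Stat4 and Stat6 were negative in iTreg alone, where none of them was called. Stat2 was at 143 and 165 CPM in deficient Th1 cells against 73.1 and 107 CPM in wild-type Th1 cells (log2 0.78 ± 0.24, adjusted p = 0.0415). In the other cultures it was lower, at 34.3 and 38.0 against 74.9 and 48.9 CPM in Th0 (log2 -0.83 ± 0.24, adjusted p = 0.0485), at 49.1 and 52.1 against 65.9 and 125 CPM in Th2 (log2 -0.90 ± 0.24, adjusted p = 0.0217), and at 52.3 and 53.3 against 81.9 and 90.0 CPM in iTreg (log2 -0.88 ± 0.24, adjusted p = 0.0138). In Th17 it was at 52.4 and 46.3 against 84.0 and 58.4 CPM and was not called (log2 -0.59 ± 0.24, adjusted p = 0.225). Groups did not overlap in any of the 5, which is weak with 2 libraries per group, and the share of all genes that did so was not counted. The F test gave adjusted p = 0.00693, or 0.0593 without library 1 of wild-type Th1 cells. Each of the 4 calls was lost when 1 of several libraries was left out, with values of 0.59 to 0.98 in Th1, -1.12 to -0.47 in Th0, -1.26 to -0.57 in Th2 and -0.94 to -0.82 in iTreg, so the signs held and the calls did not.

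Stat3 was at 413 and 541 CPM in deficient Th0 cells against 265 and 250.4 CPM in wild-type Th0 cells (log2 0.84 ± 0.20, adjusted p = 0.0154), a call lost without either wild-type library or library 2 of deficient cells (0.63 to 0.90). In Th1, Th2, Th17 and iTreg its log2 differences were 0.41, 0.40, 0.18 and -0.28, none called, and the F test gave adjusted p = 0.067. Stat6 differences were 0.26, 0.41, 0.34, 0.16 and -0.02 across Th0, Th1, Th2, Th17 and iTreg, none called, with an F test adjusted p of 0.485. The Stat5a and Stat5b differences also varied between cultures by that test (adjusted p = 0.0395 and 0.00622), with Stat5b at -9.09 in Th2 and -6.78 in iTreg, and the Stat5a result was lost in 15 of the 20 fits that left out 1 library (adjusted p up to 0.202). These are the deleted genes, at no more than 4.76 CPM of Stat5a and 4.03 CPM of Stat5b in deficient libraries. Their differences therefore depend on residual counts and on the wild-type level of each culture.

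**Figure D4:**
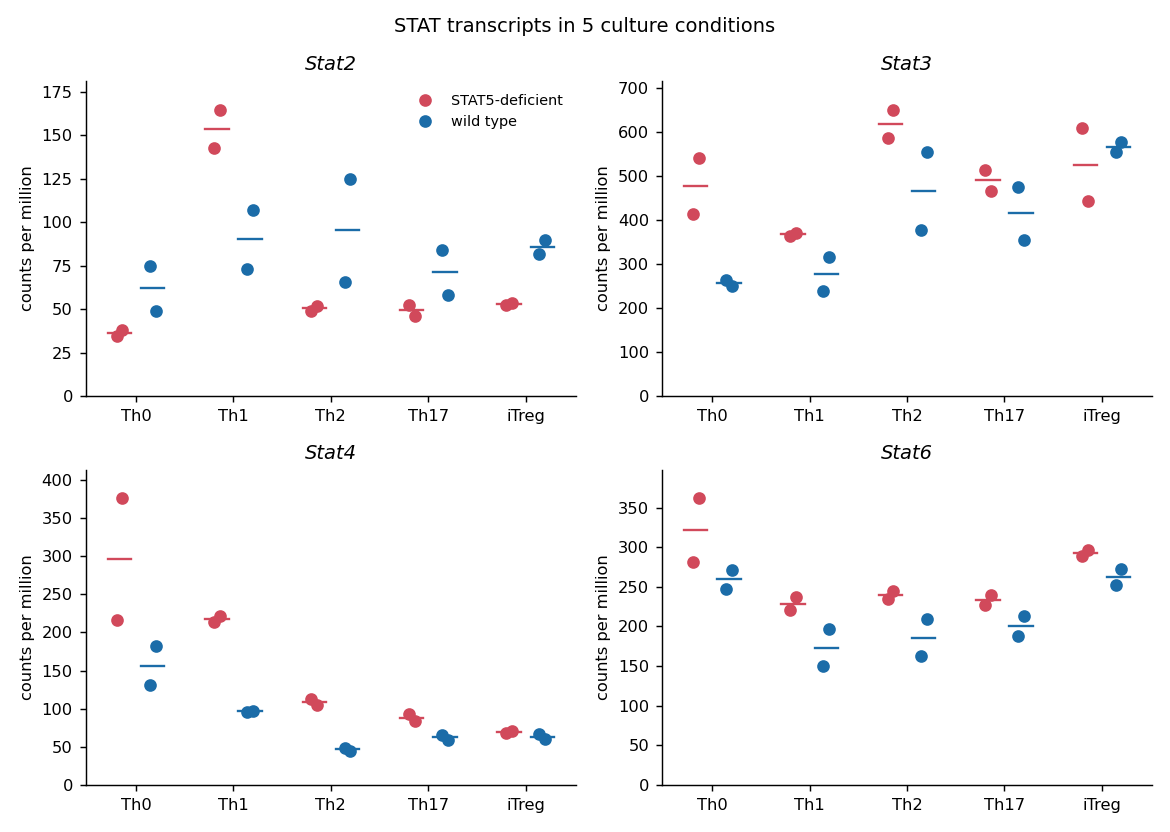
CPM of Stat2, Stat3, Stat4 and Stat6 in 5 cultures of set 4; points are single libraries, short lines are means of 2, with STAT5-deficient cells left of wild-type cells. Stat2 is higher in deficient cells in Th1 alone, and the 2 genotypes of Stat4 meet in iTreg at 67.5 and 70.2 against 67.1 and 59.7 CPM.

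Among wild-type cultures, polarised cells had called differences from Th0 cells in Stat3, Stat4, Stat5a, Stat5b and Stat6, and which of these were called varied with the culture. Stat4 was lower in Th2 (log2 -1.66 ± 0.24, adjusted p = 0.00014), Th17 (-1.23 ± 0.23, adjusted p = 0.00329) and iTreg (-1.21 ± 0.23, adjusted p = 0.00348, not called without library 2 of Th0), while in Th1, the culture given IL-12, it was at 95.6 and 97.0 CPM against 131 and 182 CPM in Th0 and was not called. Stat3 was higher in Th2 (0.90 ± 0.20, adjusted p = 0.00357), Th17 (0.77 ± 0.19, adjusted p = 0.0216) and iTreg (1.23 ± 0.20, adjusted p = 0.000772). Stat5a and Stat5b were higher in Th2 (1.32 ± 0.26 and 1.23 ± 0.24, adjusted p = 0.00163 and 0.00195) and in Th1 (0.77 and 0.83), and Stat5b in iTreg (0.82). Stat6 was lower in Th1 (-0.49) and Th2 (-0.43). The Stat5a and Stat5b calls in Th1, the Stat5b call in iTreg, the Stat3 call in Th17 and both Stat6 calls were lost when any of 3 or 4 single libraries was left out. 22.2%, 23.7%, 7.41% and 7.95% of genes were called in Th1, Th2, Th17 and iTreg against Th0, comparisons that share the Th0 libraries.

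Set 7 asked what a reduced STAT5 gene dose did. Stat5a was at 4.75 and 4.99 CPM in Stat5a-/- Stat5b+/- cells and 98.7 and 111 CPM in Stat5b-/- Stat5a+/- cells, against 191 and 189 CPM in wild-type cells. Stat5b was at 54.6 and 57.9 CPM in Stat5a-/- Stat5b+/- cells and 29.0 and 31.9 CPM in Stat5b-/- Stat5a+/- cells, against 259 and 275 CPM in wild-type cells. The heterozygous gene was therefore at 0.525 of wild type for Stat5a and 0.201 for Stat5b, and counts on the null Stat5b gene remained at 0.109 of wild type. Counts of this pair are uncertain, as above.

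Stat4 was higher at reduced dose in both genotypes. It was at 251 and 199.5 CPM in Stat5a-/- Stat5b+/- cells and 224 and 208 CPM in Stat5b-/- Stat5a+/- cells, against 142 and 117 CPM in wild-type cells (log2 0.74 ± 0.12 and 0.67 ± 0.11, adjusted p = 0.000276 and 0.0005). Stat2 was at 30.7 and 33.4 CPM in Stat5a-/- Stat5b+/- cells and 20.9 and 22.0 CPM in Stat5b-/- Stat5a+/- cells, against 67.9 and 53.4 CPM in wild-type cells (log2 -0.99 ± 0.12 and -1.57 ± 0.12, adjusted p = 4.07e-05 and 1.47e-06). Stat6 was at 355 and 358 CPM in Stat5a-/- Stat5b+/- cells and 330.1 and 324 CPM in Stat5b-/- Stat5a+/- cells, against 250.3 and 273 CPM in wild-type cells (log2 0.38 ± 0.06 and 0.25 ± 0.06, adjusted p = 0.000391 and 0.00502). Stat3 was not called: it was at 348 and 319 CPM in Stat5a-/- Stat5b+/- cells and 332 and 338 CPM in Stat5b-/- Stat5a+/- cells, against 326 and 327 CPM in wild-type cells (log2 -0.03 ± 0.06 in each, 95% interval -0.17 to 0.11). 29.2% of 12392 genes were called higher and 28.4% lower in Stat5a-/- Stat5b+/- cells, and 28.7% and 28.3% in Stat5b-/- Stat5a+/- cells.

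Between the 2 reduced-dose genotypes 2.52% of genes were called (312 genes, against 549 with the replicate block). Stat2 was higher in Stat5a-/- Stat5b+/- than in Stat5b-/- Stat5a+/- cells by 0.58 ± 0.12 on the log2 scale (adjusted p = 0.0307), a call lost when any 1 of the 4 libraries was left out (0.52 to 0.64, adjusted p 0.11 to 0.166). Stat5a was lower (log2 -4.43 ± 0.10) and Stat5b higher (log2 0.89 ± 0.08), and Stat3, Stat4 and Stat6 were not called. The myeloid and antigen-presenting list was at 11.8 to 12.3 summed CPM in Stat5a-/- Stat5b+/- cells (Csf1r, Lyz2 and Itgax at 0) and 51.2 to 57.3 CPM in Stat5b-/- Stat5a+/- cells (Csf1r at 0), against 57.4 to 60.4 CPM in wild-type cells (Csf1r, Lyz2 and Itgax at 0). Treg markers summed to 14.2 to 15.8 CPM in Stat5a-/- Stat5b+/- cells and 20.9 to 23.4 CPM in Stat5b-/- Stat5a+/- cells, against 49.5 to 65.4 CPM in wild-type cells. CD8 T cell markers summed to 4.30 to 5.11 CPM in Stat5a-/- Stat5b+/- cells and 3.92 to 6.82 CPM in Stat5b-/- Stat5a+/- cells, against 9.87 to 12.2 CPM in wild-type cells. Rn45s was at 4363 to 6793 CPM in Stat5a-/- Stat5b+/- cells and 3236 to 4414 CPM in Stat5b-/- Stat5a+/- cells, against 2095 to 2281 CPM in wild-type cells. The part of these in the STAT values was not tested.

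**Figure D5:**
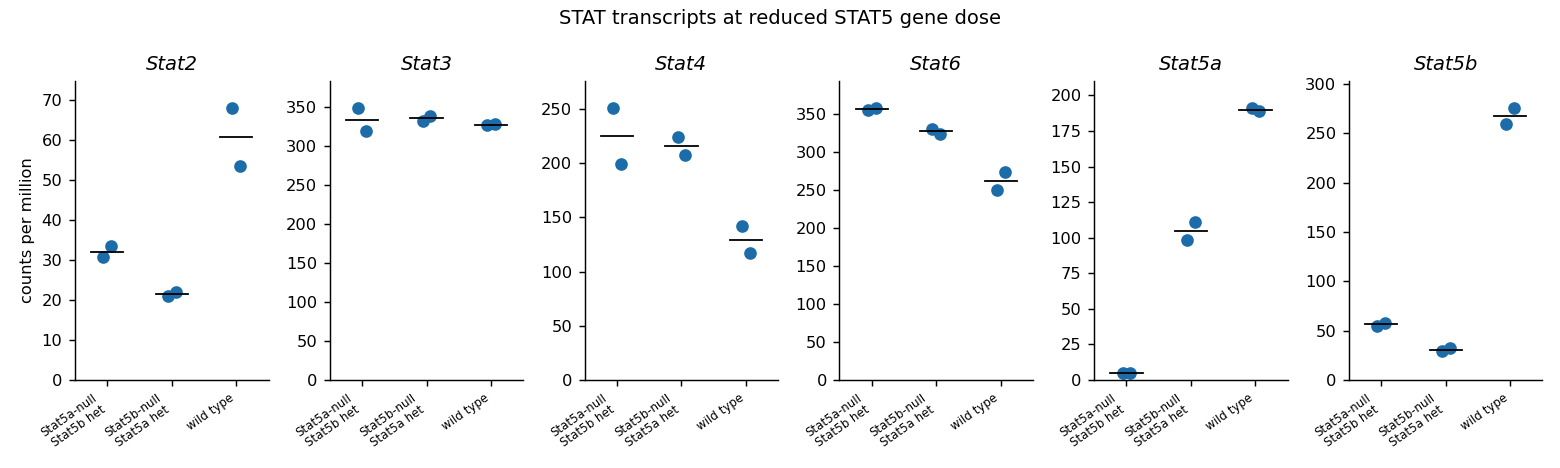
CPM of the 6 STAT transcripts at reduced STAT5 gene dose; points are single libraries and lines are means of 2. Stat4 and Stat6 are higher and Stat2 lower in both reduced-dose genotypes than in wild-type cells, while Stat3 lies between 319 and 348 CPM in all 6 libraries.

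In Treg cells of set 6, Stat4, Stat5a and Stat5b were higher after IL-2 culture. No group was cultured without IL-2, so IL-2 and culture cannot be told apart. Stat4 was at 274 and 217 CPM after culture, against 119.5 and 116 CPM ex vivo (1.99-fold, log2 0.99 ± 0.10, adjusted p = 0.00036). Stat5b was at 703 and 646 CPM after culture, against 375 and 377 CPM ex vivo (1.72-fold, adjusted p = 0.000197), and Stat5a at 284 and 244 CPM after culture, against 158 and 157 CPM ex vivo (1.61-fold, adjusted p = 0.000568). The sign for Stat4 was thus opposite to that in set 1, where conventional cells were compared with rested cells; the sets differ in cell type, starting state and counting, and the difference was not tested. Stat2 (log2 0.18 ± 0.07, adjusted p = 0.0966), Stat3 (0.18 ± 0.07, adjusted p = 0.0833) and Stat6 (0.06 ± 0.07, adjusted p = 0.583) were not called, though with no scaling Stat2 and Stat3 were (0.24 each, adjusted p = 0.033 and 0.0281). Both were also called with the replicate block. Over all genes 15.2% of 11942 were called higher and 15.7% lower. The Treg markers summed to 2615 to 2944 CPM after culture and 1890 to 1952 CPM ex vivo, B cell markers to 106 to 271 CPM after culture and 102 to 225 CPM ex vivo, and myeloid and antigen-presenting markers to 137 to 333 CPM after culture and 184 to 417 CPM ex vivo, with every marker detected on both sides; their part was not tested.

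The genes that act around the STATs were taken from lists chosen by function. All 4 JAK kinases were lower with IL-2 in set 1 (Tyk2 -1.12, Jak2 -0.91, Jak3 -0.64 and Jak1 -0.50 on the log2 scale), where 40.3% of all genes were called lower. After STAT5 loss under control vectors 3 of 4 were higher (Jak2 0.72, Tyk2 0.60 and Jak1 0.47) and none lower, where 28.9% of all genes were called higher, and with the STAT5 vector in deficient cells 3 were lower (Jak2 -1.03, Jak3 -0.96 and Tyk2 -0.55) and none higher, where 28.7% were called lower. Medians were -0.78, 0.54 and -0.76, where all genes tested had medians of -0.01, 0.06 and -0.05. In set 4, Jak2 (0.62) and Jak1 (0.40) were higher in deficient cells on average, where 15.1% of all genes were. In Treg cells Jak2 was higher (0.71) and the other 3 lower, where 15.2% of all genes were higher and 15.7% lower.

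Of the inhibitors of this pathway, 16 genes of the SOCS, PIAS and phosphatase families, 8 were higher and 2 lower with IL-2, 3 higher and 7 lower after STAT5 loss, and 9 higher and 2 lower with the STAT5 vector in deficient cells. Over all genes 40.7% were higher and 40.3% lower with IL-2, 28.9% higher and 30% lower after loss, and 31.7% higher and 28.7% lower with the vector, so the 8 of 16 higher with IL-2 lie near the share of all genes. The list medians were 0.30, -0.20 and 0.44, where those of all genes were -0.01, 0.06 and -0.05. Socs2, Socs1 and Cish, feedback genes known to be induced by STAT5, were called in each: 7.38, 3.65 and 2.70 with IL-2, -5.19, -3.19 and -2.70 after STAT5 loss, and 5.37, 3.20 and 2.80 with the STAT5 vector. Socs3, which restrains STAT3 signalling, rose by 3.42 with the vector in deficient cells and by 1.82 in wild-type cells. Socs5 went the other way, at -1.81, 1.80 and -1.52 in the first 3 comparisons.

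Of 19 cytokine receptor chains tested, 8 were higher and 6 lower after STAT5 loss, and 7 higher and 11 lower with the STAT5 vector in deficient cells. Over all genes 28.9% were higher and 30% lower after loss, and 31.7% higher and 28.7% lower with the vector, so the 6 lower after loss and the 7 higher with the vector lie near the share of all genes. The IL-2 receptor chain Il2ra was at -4.23 and 4.44 in these comparisons, Il10ra, which signals through STAT3, at -3.48 and 4.03, and Il12rb2, the IL-12 receptor chain that docks STAT4, at -2.91 and 3.39. Stat4 itself thus differed in the opposite direction to Il12rb2 in both, 0.80 and -1.83. Il6st, the shared chain of the IL-6 family upstream of STAT3, had the sign of Stat3: 2.61 after loss and -2.29 with the vector. The interferon receptor chains Ifnar1 and Ifnar2 were at 0.93 and 0.92 after loss and -1.15 and -1.07 with the vector. Among 5 partners, Irf9 (also on the interferon list), Nmi and the coactivators Crebbp, Ep300 and Ncoa1, 4 were higher after loss, where 28.9% of all genes were (medians 0.39 for the list, 0.06 for all genes) and 4 lower with the vector, where 28.7% of all genes were (-0.39 and -0.05).

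The interferon-stimulated genes, 14 well-known targets of STAT2 complexes, were set beside Stat2. The medians of all genes lay between -0.05 and 0.08 in the comparisons given here. With IL-2 in set 1 all 14 were lower (median -2.99), where 40.3% of all genes were, as was Stat2 (-0.99). After STAT5 loss the list split by set as Stat2 did: medians were -2.29 in set 2, -1.28 in set 3 and 1.18 in set 5, where Stat2 was at -0.56, -0.35 and 0.40. Of the 14 genes 12, 7 and 7 were called in either direction in these sets, where 39%, 41.6% and 43% of all genes were, so the counts of sets 3 and 5 lie near the share of all genes; those called were lower in sets 2 and 3, and 6 of the 7 were higher in set 5. In set 4, 9 of 14 were called in deficient Th1 cells, all higher (median 2.07), where 11.7% of all genes were called. In Th0, Th17 and iTreg 3, 5 and 8 were called, all lower (medians -0.76, -1.28 and -2.04), where 6.49%, 4.88% and 22.6% of all genes were called. Stat2 had the sign of these medians, but in Th2 3 were called, all higher (median 0.02), where 11.5% of all genes were called and Stat2 was at -0.90. In set 7, 5 of 8 tested were lower in Stat5a-/- Stat5b+/- cells and 6 of 8 in Stat5b-/- Stat5a+/- cells (medians -0.76 and -1.50), where 28.4% and 28.3% of all genes were lower and Stat2 was at -0.99 and -1.57. Stat2 and the list parted with the STAT5 vector in deficient cells, where 11 of 14 were lower (median -1.12), against 28.7% of all genes, and Stat2 was not called (0.18), and in Treg cells after IL-2, where 13 of 14 were lower (median -1.99), against 15.7% of all genes, and Stat2 was at 0.18.

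Stat3, Stat5a and Stat5b lie close together on mouse chromosome 11, and the nearest genes that passed the low-count filter are given beside them. Genes that did not pass were skipped, so those named need not adjoin each other. In RefSeq order these are Ghdc, Kcnh4 and Rab5c on the Stat5b side, and Atp6v0a1 and Naglu beyond Stat3. After STAT5 loss under control vectors Rab5c was at -1.08 and Kcnh4 at -1.14 (both called), Ghdc at 0.19 (not called), Stat3 at 0.27, Atp6v0a1 at 1.58 (called) and Naglu at -0.18 (not called). With the STAT5 vector in deficient cells, Atp6v0a1 was at -1.91, Stat3 at -0.998, Naglu at -0.58, Ghdc at -0.94 and Rab5c at 0.46, all called, and Kcnh4 at 0.06, not called. Stat4 is on chromosome 1, and Stat2 and Stat6 are on chromosome 10.

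Across the 26 group means of sets 2, 3 and 5, after removal of each set's mean, Stat3 and Stat4 had a Pearson r of 0.860, and each was negatively related to Stat5a (r = -0.815 and -0.818). Stat5a and Stat5b had r = 0.816 and Stat2 and Stat6 r = 0.438. These are descriptions: the groups share vectors and genotypes, so the points are not independent. Over the same 26 means the transcripts most like Stat4 were Smpdl3a (r = 0.975), Lipa (0.974) and Evl (0.969), those most like Stat3 were Sash3 (0.954), Zbtb7b (0.952) and Rhof (0.950), and those most like Stat2 were Zbp1 (0.932), Ube2q1 (0.803) and Adar (0.788). Stat6 was most like Ankfy1 and Wapal (0.851 each) and 1110037F02Rik (0.837). Among the transcripts most like Stat5a were Zfp609 (0.976) and Osm (0.974), and Stat5b was most like Lama5 (0.979), Amica1 (0.975) and Pim1 (0.974).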

How the data were processed

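Gene counts were deposited by the authors as 7 tables of whole-number read counts per gene and library. Per the submitters' processing notes, the tools were TopHat2, Bowtie2 and HTSeq with mouse build mm9; versions and the strand setting are not given in the sources used here. Columns were mapped to samples by title. In the tables of sets 4 and 6, 27 rows whose symbols had turned into dates were left out (at most 0.266% of a library), and 253 symbols in sets 1 and 3 had hyphens restored. No libraries were identical.

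Fits used edgeR 4.0.16 (quasi-likelihood, TMM scaling, filterByExpr) in R 4.3.3, separately for sets 1, 4, 6 and 7 and jointly for sets 2, 3 and 5, whose differences were taken within sets and averaged. P-values were adjusted over all genes by Benjamini-Hochberg, and calls were made at adjusted p below 0.05. The biological coefficient of variation was 0.064, 0.165, 0.24, 0.096 and 0.068 for set 1, sets 2, 3 and 5, and sets 4, 6 and 7. Alternatives were RLE, upper-quartile and no scaling, no low-count filter, a replicate block, DESeq2 1.42.0, only the libraries compared, and each library left out (88 fits). In set 7 same-numbered libraries deviated together in each of 6 pairs (r from 0.16 to 0.32). With 2 libraries in a group their deviations from the group mean mirror each other, so each r was counted for both library numbers. The labels do not say what a number shares. The scripts were tested on simulated data. The 6 genes, the lists and the comparisons were chosen with earlier results of these data known. Named genes were the 6 members, members of the lists, chromosome 11 neighbours and the 3 transcripts most like each member among those with mean log2 CPM of at least 4. One transcript that this rule names for Stat5a is not reported here. ChIP files were not used here.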

Additional observations from a re-analysis of the deposited data

Results flagged for a closer look

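The response to the STAT5 vector differed between STAT5-deficient and wild-type cells, by a test of the difference itself, for 4 genes. The log2 difference was -0.70 for Stat3, -1.24 for Stat4, 5.4 for Stat5a and 3.91 for Stat5b. For Stat5a and Stat5b a greater log2 effect in deficient cells was fixed by the design, since the deletion leaves few counts to start from. The effect of STAT5 loss differed between the 5 cultures of set 4, by an F test of culture by genotype, for Stat2 (adjusted p = 0.00693), Stat4 (adjusted p = 0.0422), Stat5a (adjusted p = 0.0395) and Stat5b (adjusted p = 0.00622). Stat5a and Stat5b are the deleted genes, so their values depend on residual counts in deficient cells and on wild-type levels. The Stat2 result was lost without library 1 of wild-type Th1 cells, and those of Stat4 and Stat5a in 12 and 15 of 20 fits that left out 1 library.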

How the results depend on the processing

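Over the 3 sets, STAT5 loss gave Stat4 values of 0.78 to 1.03 and the STAT5 vector in deficient cells gave Stat4 values of -2.02 to -1.81 and Stat3 values of -1.19 to -0.96 under every alternative and left-out library, all called. The number of other STATs called changed in 5 of 10 comparisons. With IL-2 in set 1 it was 3, and 4 with upper-quartile or no scaling (3 to 4 with single libraries left out). With the STAT5 vector in deficient cells it was 2, and 3 with upper-quartile scaling, and in wild-type cells with that vector 1 to 2 when single libraries were left out. In set 4 on average it was 2 to 4, and in Treg cells 1, but 3 with the replicate block, 3 with no scaling and 1 to 2 with a library left out. Same-numbered libraries did not deviate together in every pair of sets 1 to 5 (r from -0.276 to 0.809), and set 6 has too few pairs to tell (r = 0.648), so the numbers were not taken to pair samples there. Most pairs of sets 2 to 5 did deviate together. In sets 2 to 5, r exceeded 0.1 in 20 of 30, 40 of 56, 64 of 90 and 118 of 132 pairs. These counts hold each r for both library numbers, so the pairs are not all separate values. Median r was 0.462, 0.378, 0.271 and 0.326 in these sets and 0.019 in set 1. With the block in Treg cells Stat2 and Stat3 were called (log2 0.18 each, adjusted p = 0.0215 and 0.0194). In set 5 the block called Stat2 after STAT5 loss (0.42, adjusted p = 0.0374). It reversed no value printed here and changed no other call printed here except the F test of Stat3 given below.

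Values that changed sign were not called unless stated; the cause was not tested. With upper-quartile scaling, no filter and no scaling, STAT5 loss gave Stat2 0.01, 0.01 and 0.05, Stat6 0.07, 0.08 and 0.12, and Stat6 by set 0.04, 0.04 and 0.09 (set 2), 0.04, 0.07 and 0.09 (set 3), and 0.14, 0.12 and 0.18 (set 5, with RLE 0.0011 and DESeq2 0.00085). The STAT5 vector in deficient cells gave Stat2 -0.01 (upper-quartile) and Stat6 -0.13 (upper-quartile, called), -0.07 (no filter) and -0.09 (no scaling). In set 3 Stat2 was 0.01 with only the libraries compared and Stat6 -0.02, -0.01 and -0.0014. In set 5 Stat2 was -0.07 and -0.07 and Stat6 -0.10 and -0.09 with upper-quartile and no scaling. Restored against wild-type cells gave Stat2 -0.0021 (RLE), -0.003 (upper-quartile), -0.0017 (DESeq2), -0.03 (only the libraries compared) and -0.02 (4 libraries out), and Stat6 0.01 (no filter) and 0.03 (no scaling). The difference in vector effect gave Stat2 -0.0014, -0.12, -0.09, -0.11 and -0.0016 and Stat6 -0.01, -0.13, -0.09, -0.11 and -0.01 with RLE, upper-quartile, no filter, no scaling and DESeq2. In wild-type cells Stat6 in set 2 was -0.04 (RLE), -0.03 (upper-quartile), -0.05 (no scaling), -0.04 (DESeq2) and -0.02 (only the libraries compared), and in set 3 0.01 (no scaling). With no scaling Stat3 was 0.03 and 0.04 in the reduced-dose genotypes, and in iTreg Stat4 was 0.12 and Stat6 0.16 (0.01 with upper-quartile). Beside MYC in deficient cells Stat6 was -0.04 and -0.12.

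Leaving out single libraries turned uncalled values within these ranges: Stat2 -0.05 to 0.13 for the difference in vector effect, -0.01 to 0.50, -0.10 to 0.12 and -0.02 to 0.49 for the vector in deficient cells of sets 2, 3 and 5, and -0.11 to 0.09 for restored cells; Stat3 -0.03 to 0.42 in Th17 and -0.10 to 0.03 in Stat5a-/- Stat5b+/- cells; Stat4 -0.15 to 0.03 in iTreg and -1.03 to 0.13 for the vector in wild-type cells of set 3. Stat5b was -0.05 to 0.21 for the vector in wild-type cells and -0.47 to 0.24 in set 3. Stat6 was -0.07 to 0.03 in iTreg, -0.18 to 0.01 for loss in set 5, -0.01 to 0.06 for the vector in wild-type cells, -0.10 to 0.10 and -0.09 to 0.02 in sets 2 and 3, and -0.01 to 0.14 in Treg cells. The F test was also called for Stat3 with DESeq2 (adjusted p = 0.0147), no filter (0.0409) and the block (0.0498). Another 54 values of uncalled members in the smaller comparisons are not printed, of which 19 were called or changed sign under an alternative other than leaving out a library, 8 of them called. With 2 libraries in most groups, a missed call does not show that values did not differ.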
